A study of Mus musculus with 24 samples.

Results

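The 9 genes described here encode C-type lectin receptors of macrophages: Clec4e (Mincle), Clec4d (MCL), Clec4n (Dectin-2), Clec7a (Dectin-1), Clec5a (MDL-1), Clec12a (MICL), Clec4a2 (DCIR), Clec4a3 (a further member of the DCIR family) and Mrc1 (the mannose receptor, CD206). They were chosen by symbol, through the GENCODE annotation of the Ensembl identifiers in each library, and make up 9 of the 52636 gene models and 9 of the 14435 genes that passed the filter on low counts. RNA came from bone marrow-derived macrophages, primary cells grown from mouse marrow. The study has 4 groups of 6 libraries: Ninj1 KO cells given Pam3 (KO_Pam3), wild-type cells given Pam3 (WT_Pam3), Ninj1 KO cells kept in medium only (KO_media) and wild-type cells kept in medium only (WT_media). Wild type is C57BL/6. NINJ1 is a membrane protein that drives plasma membrane rupture in lytic cell death, and Pam3 is the usual short name of a synthetic bacterial lipopeptide sensed by TLR2 with TLR1. The sources used here do not give how Ninj1 was disrupted, the ages of the mice or the dose and duration of Pam3. Whether the 6 libraries of a group stem from different mice or cultures is not stated either, so p-values measure the spread between these libraries, which may be technical.

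C-type lectin receptors bind sugars, lipids or crystals on microbes and damaged cells. Mincle, MCL and Dectin-2 signal through the adaptor FcR gamma, MDL-1 through DAP12, and Dectin-1 through a tyrosine motif in its own tail. Each of these routes leads to the kinase SYK and, by way of CARD9, BCL10 and MALT1, to NF-kB. MICL and DCIR carry inhibitory tyrosine motifs that recruit the phosphatases SHP-1 and SHP-2, while the mannose receptor takes up glycoproteins and is widely used as a marker of alternative activation.

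All 9 genes were measured in all 24 libraries, whose counted reads totalled 31302011 to 40663152 each. Ninj1 itself did not overlap between genotypes and was lower in KO cells under both treatments, with means of 429 ± 25.7 CPM in KO_Pam3, 810 ± 176 CPM in WT_Pam3, 167 ± 9.68 CPM in KO_media and 307 ± 15.7 CPM in WT_media (SD, n = 6 each; CPM are counts scaled to a common library size by the TMM method). The counts span the whole Ninj1 gene, so reads in KO libraries say nothing of protein. The 6 macrophage markers were present in every library, with a summed level of 7025 to 10461 CPM. Every library had Xist RNA, between 233 and 796 CPM, and Kdm5d and Eif2s3y on the Y chromosome had 0 counts in all of them. Male is the sex given for WT libraries, which these levels go against; no sex is given for the KO libraries. WT_Pam3 replicate 5 stood apart from its group, with 12.2% of its reads in its 10 most abundant genes, against 9.49% to 9.60% in the other 5 WT_Pam3 libraries, and values without it stand beside the results it moved.

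Clec4e, Clec4d, Clec4n, Clec4a2 and Clec4a3 lie in a cluster on mouse chromosome 6 (GRCm38). Clec4e (ENSMUSG00000030142) spans chr6:123281789-123289870 on the minus strand, Clec4d (ENSMUSG00000030144) chr6:123262111-123275265 and Clec4n (ENSMUSG00000023349) chr6:123229843-123247021 on the plus strand. Clec4a2 (ENSMUSG00000030148) at chr6:123106428-123143999 and Clec4a3 (ENSMUSG00000043832) at chr6:122952515-122969875 are on the plus strand as well. Clec7a (ENSMUSG00000079293), at chr6:129461591-129472779 on the minus strand, and Clec12a (ENSMUSG00000053063), at chr6:129342691-129365303 on the plus strand, are neighbours farther along the chromosome, and Clec5a (ENSMUSG00000029915) is at chr6:40574894-40585821 on the minus strand. Mrc1 (ENSMUSG00000026712) is at chr2:14229392-14332057 on the plus strand. GENCODE lists Clec7a as a polymorphic pseudogene and the others as protein coding. Of the 50-base stretches in Clec4a2 transcripts, the length of a read, 6.83% also occur in transcripts of other genes, most often Clec4a4, so some Clec4a2 reads could be lost or shared; the share was 0.686% for Clec4n, 0.457% for Clec12a and 0 for the other 6 genes.

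The sequences just upstream of the transcription starts of Clec4e and Clec5a, which rose most with Pam3, and of Clec7a and Mrc1, which fell, are shown so that the receptors can be compared (RefSeq windows on GRCm38.p6, 250 bases up to the start, 5′ to 3′ on the gene's strand, with motif matches on either strand in capitals). The windows are chr6:123289872-123290121 (minus strand) for Clec4e, chr6:40585806-40586055 (minus) for Clec5a, chr6:129472780-129473029 (minus) for Clec7a and chr2:14229164-14229413 (plus) for Mrc1.
Clec4e: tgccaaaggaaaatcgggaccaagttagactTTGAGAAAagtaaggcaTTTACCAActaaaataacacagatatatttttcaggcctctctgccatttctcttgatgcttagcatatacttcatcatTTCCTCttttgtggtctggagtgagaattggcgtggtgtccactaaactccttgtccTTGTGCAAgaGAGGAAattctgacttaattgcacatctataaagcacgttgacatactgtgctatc
Clec5a: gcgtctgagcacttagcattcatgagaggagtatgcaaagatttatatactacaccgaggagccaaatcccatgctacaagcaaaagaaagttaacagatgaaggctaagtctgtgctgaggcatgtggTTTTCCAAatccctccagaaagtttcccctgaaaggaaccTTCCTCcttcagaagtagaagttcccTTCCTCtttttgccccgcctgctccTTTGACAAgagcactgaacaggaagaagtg
Clec7a: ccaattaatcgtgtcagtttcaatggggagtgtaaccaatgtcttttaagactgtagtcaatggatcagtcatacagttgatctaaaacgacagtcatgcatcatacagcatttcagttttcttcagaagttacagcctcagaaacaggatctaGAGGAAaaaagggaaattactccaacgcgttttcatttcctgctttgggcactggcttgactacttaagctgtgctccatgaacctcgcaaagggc
Mrc1: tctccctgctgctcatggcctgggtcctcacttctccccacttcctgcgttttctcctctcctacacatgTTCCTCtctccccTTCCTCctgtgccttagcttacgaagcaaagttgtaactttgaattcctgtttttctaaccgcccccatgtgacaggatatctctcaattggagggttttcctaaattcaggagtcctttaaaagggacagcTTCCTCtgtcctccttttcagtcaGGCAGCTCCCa

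Motifs were searched on both strands from 250 bases before to 50 bases after the start, in 10 windows of 8 of the 9 genes. The C/EBP letters TTGNNNAA had at least 1 match in 4 of the 8 genes, and in 36.7% of the 32851 windows of the whole table. They matched 3 times in Clec4e, of which TTGTGCAA lay 66 to 59 bases upstream, 3 times in Clec12a, and 2 times each in Clec5a and Clec4d. The PU.1 letters GAGGAA had at least 1 match in 7 of the 8 genes, and in 28.3% of the table's windows. They matched 2 times in Clec4e, Clec5a and Clec12a, 3 times in Clec4d and Mrc1, and 1 time in each of the 2 windows of Clec7a. Members are counted here by gene and the table by window. Of the 2 windows of Clec4a3, 1 held a PU.1 match, and that of Clec4a2 held no match. A loose NF-kB pattern (GGG, any 5 bases, CC) matched 1 time, in Mrc1, and is present in 50.8% of all windows, while a stricter one (GGAA, any 3 bases, CCC) matched in no member and in 5.56% of all windows. No pair of matches overlapped. A match describes these letters only and is not evidence of binding.

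**Figure D1:**
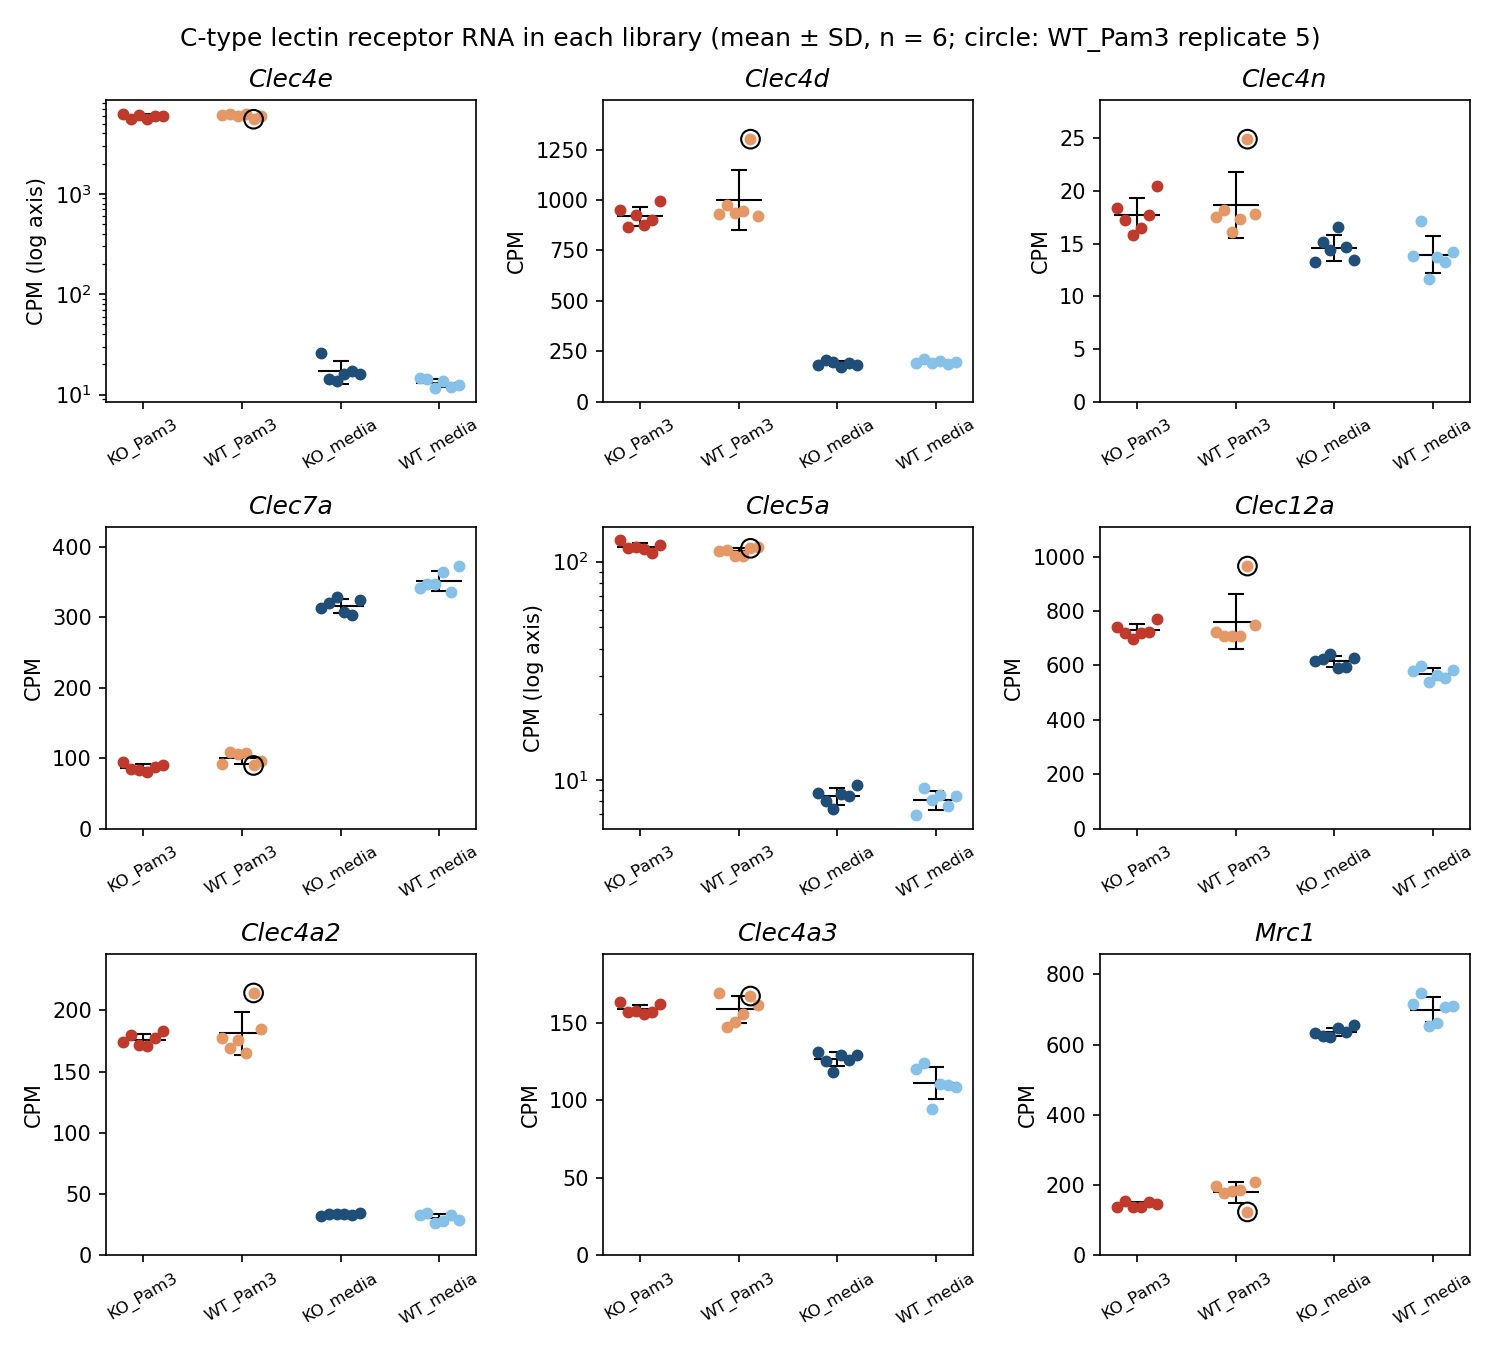
CPM of each of the 9 genes in every library (points), with the mean and SD of 6 libraries per group; the axes of Clec4e and Clec5a are logarithmic, and a circle marks WT_Pam3 replicate 5. Clec4e lies between 5539.8 and 6313 CPM in every Pam3 library and between 11.7 and 25.8 CPM in every media library.

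The Pam3 groups were set against the media groups to ask which receptors respond to a TLR2 ligand in each genotype. All 9 receptors passed the test in both genotypes, 7 of them higher and 2 lower (edgeR quasi-likelihood test, Benjamini-Hochberg adjusted p under 0.05 over all genes). Pam3 moved most of the transcriptome, with 40.2% of tested genes higher and 44.8% lower in KO cells, and 40.6% higher and 44.2% lower in WT cells, so that a call alone sets no receptor apart and the size of the change is what distinguishes them. The median log2 change was 0.33 over the 9 receptors, against -0.07 over all tested genes, in KO cells, and 0.51 against -0.05 in WT cells. In bulk RNA, fewer cells of a type and less RNA per cell cannot be told apart.

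Clec4e, the receptor for mycobacterial cord factor, had by far the greatest rise of the 9. It stood at a lowest, median and highest of 5550.3, 5945 and 6227 CPM in KO_Pam3 and of 5539.8, 6015 and 6313 CPM in WT_Pam3, against 13.7, 16.1 and 25.8 CPM in KO_media and 11.7, 13.02 and 14.8 CPM in WT_media. The Pam3 and media libraries were far apart, and the genotypes overlapped within each treatment. The log2 change was 8.42 in KO cells (SE 0.129, 343-fold, adjusted p = 3.70e-28) and 8.84 in WT cells (SE 0.131, 457-fold, adjusted p = 1.92e-28), in 6 of 6 libraries each. Without KO_media replicate 1, which had the most Clec4e in media, the KO change was 8.58 (SE 0.0838). Only 0.242% of tested genes changed as much in KO cells and 0.229% in WT cells.

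Clec4d, which forms a complex with Mincle and recognises the same glycolipid, rose with it but less. Its lowest, median and highest levels were 866, 913 and 995 CPM in KO_Pam3 and 919, 939 and 1301 CPM in WT_Pam3, against 171, 187 and 208 CPM in KO_media and 187, 195 and 210.4 CPM in WT_media. The groups did not overlap, and the log2 change was 2.29 in KO cells (SE 0.0693, 4.89-fold, adjusted p = 1.77e-21) and 2.35 in WT cells (SE 0.0695, 5.09-fold, adjusted p = 1.04e-21). The 1301 CPM were those of WT_Pam3 replicate 5, without which the WT change was 2.26.

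Clec4n, the receptor for fungal mannans that shares the FcR gamma adaptor, changed little. It ranged over 15.9 to 20.5 CPM in KO_Pam3 and 16.1 to 24.9 CPM in WT_Pam3, against 13.3 to 16.6 CPM in KO_media and 11.7 to 17.1 CPM in WT_media, and the treatments overlapped in both genotypes. The log2 change was 0.28 in KO cells (SE 0.0911, adjusted p = 0.00637) and 0.42 in WT cells (SE 0.0914, adjusted p = 1.61e-04). The 24.9 CPM were those of WT_Pam3 replicate 5, without which the WT change was 0.32 (SE 0.0725, adjusted p = 1.75e-04).

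Clec5a, which signals through DAP12 and is known for its part in myeloid responses to flaviviruses, had the second-greatest rise. Its lowest, median and highest levels were 110.0, 116 and 125 CPM in KO_Pam3 and 106, 113 and 117 CPM in WT_Pam3, against 7.34, 8.55 and 9.53 CPM in KO_media and 6.94, 8.27 and 9.24 CPM in WT_media. The Pam3 and media libraries did not overlap. The log2 change was 3.79 in KO cells (SE 0.0608, 13.8-fold, adjusted p = 1.09e-27) and 3.77 in WT cells (SE 0.0608, 13.7-fold, adjusted p = 1.18e-27).

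Clec7a, the receptor for fungal beta-glucan, went the other way from the FcR gamma and DAP12 receptors. It had a lowest, median and highest level of 80.8, 85.6 and 94.5 CPM in KO_Pam3 and 89.5, 101 and 109 CPM in WT_Pam3, against 303, 316 and 329 CPM in KO_media and 335, 347 and 372 CPM in WT_media. All Pam3 libraries were below all media libraries. The fall was 3.65-fold in KO cells (log2 -1.87, SE 0.04999, adjusted p = 1.04e-22) and 3.52-fold in WT cells (log2 -1.81, SE 0.0499, adjusted p = 1.96e-22).

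Among the inhibitory receptors, Clec4a2 rose clearly and Clec12a slightly. Clec4a2, whose tail recruits phosphatases, stood at 171 to 183 CPM in KO_Pam3 and 165 to 214 CPM in WT_Pam3, against 31.9 to 34.2 CPM in KO_media and 26.8 to 34.8 CPM in WT_media, with log2 changes of 2.39 in KO cells (SE 0.0612, 5.26-fold, adjusted p = 3.71e-23) and 2.56 in WT cells (SE 0.0617, 5.90-fold, adjusted p = 9.48e-24). The 214 CPM were those of WT_Pam3 replicate 5, without which the WT change of Clec4a2 was 2.51 (SE 0.0469). Clec12a, a receptor for uric acid crystals and dead cells, stood at 696 to 772 CPM in KO_Pam3 and 707 to 965 CPM in WT_Pam3, against 589 to 641 CPM in KO_media and 538 to 597 CPM in WT_media. Neither gene's Pam3 libraries overlapped its media libraries. For Clec12a the log2 change was 0.24 in KO cells (SE 0.0565, adjusted p = 2.96e-04) and 0.42 in WT cells (SE 0.0565, adjusted p = 1.44e-07). Without WT_Pam3 replicate 5, which had the 965 CPM, the WT change was 0.34 (SE 0.0311). Clec4a3, from the DCIR family, stood at 156 to 163 CPM in KO_Pam3 and 147 to 169 CPM in WT_Pam3, against 118 to 131 CPM in KO_media and 94.4 to 124 CPM in WT_media. Its Pam3 and media libraries did not overlap either, and its log2 change was 0.33 in KO cells (SE 0.0490, adjusted p = 8.65e-07) and 0.51 in WT cells (SE 0.0492, adjusted p = 2.26e-10).

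Mrc1, the endocytic mannose receptor, had the largest fall. Its lowest, median and highest levels were 138, 143 and 156 CPM in KO_Pam3 and 124, 185 and 209 CPM in WT_Pam3, against 621.5, 633 and 655 CPM in KO_media and 654, 709 and 747 CPM in WT_media. The treatments were far apart in both genotypes, and the only Pam3 library of WT cells within or under the KO_Pam3 range was replicate 5, at 124 CPM. The fall was 4.38-fold in KO cells (log2 -2.13, SE 0.0779, adjusted p = 1.31e-19) and 3.88-fold in WT cells (log2 -1.96, SE 0.0774, adjusted p = 8.09e-19). Without WT_Pam3 replicate 5 the WT change was -1.87 (SE 0.0418).

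The small rises depend on how libraries are scaled. With library size as the only scaling, the median change of all tested genes moved to -0.56 in KO cells and -0.58 in WT cells, and Clec4n, Clec12a and Clec4a3 turned to log2 changes of -0.20, -0.24 and -0.16 in KO cells, all past the test, and to changes of -0.11, -0.10 and -0.01 in WT cells, none past it. Relative to that shifted median, all 3 were higher. Directions of the other 6 receptors were the same under both scalings and in the RPKM of the authors.

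**Figure D2:**
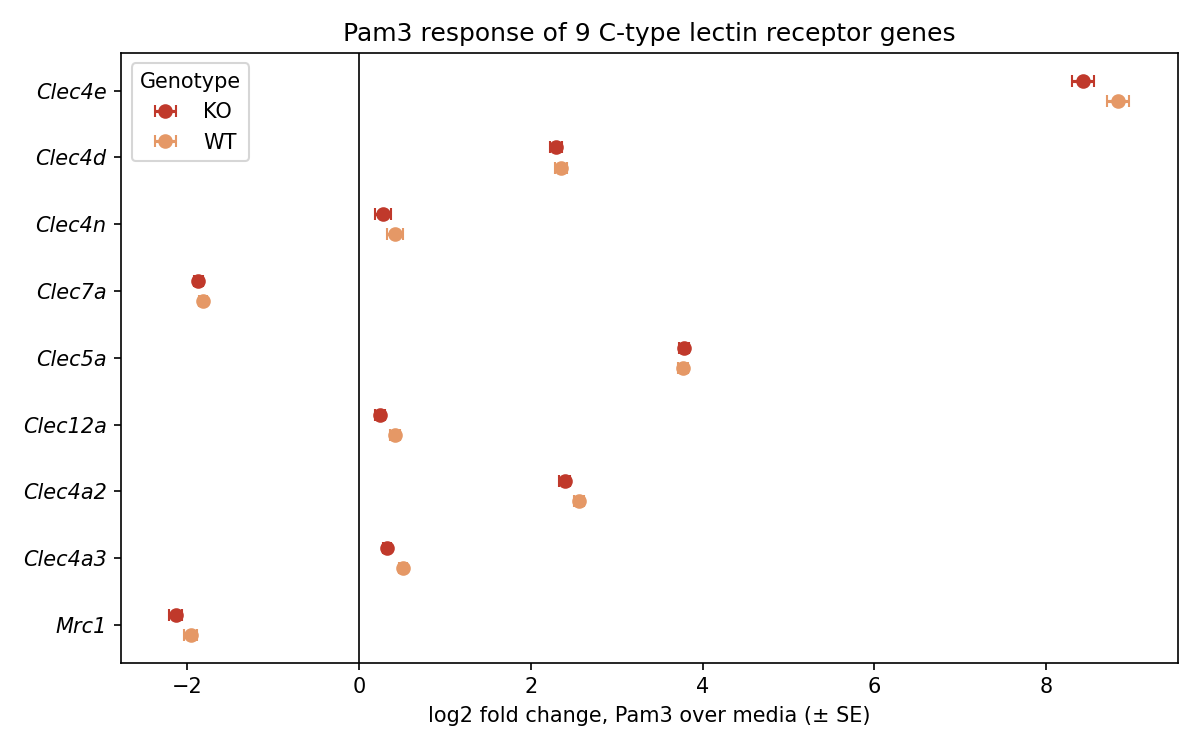
log2 fold change of Pam3 over media, with SE, for each of the 9 genes in KO cells (upper, red point) and WT cells (lower, orange point). Clec4e is at 8.42 in KO cells and 8.84 in WT cells, Clec5a, Clec4a2 and Clec4d are between 2.29 and 3.79, Clec4n, Clec12a and Clec4a3 are between 0.24 and 0.51, and Clec7a and Mrc1 are at -1.81 to -2.13.

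Levels of different genes can be set side by side in RPKM, which corrects for length. In KO_media the order was Clec12a (218 ± 7.20 RPKM), Clec4d (126 ± 8.77), Clec7a (123 ± 4.07), Mrc1 (105 ± 1.87), Clec4a3 (84.7 ± 2.95), Clec4a2 (11.4 ± 0.323), Clec4n (10.4 ± 0.856), Clec4e (6.07 ± 1.55) and Clec5a (1.96 ± 0.166). Clec4d and Clec7a overlapped there, as did Clec4a2 and Clec4n. WT_media had the same order with Clec7a (137 ± 6.52 RPKM) and Clec4d (132 ± 5.90 RPKM) exchanged and overlapping. In KO_Pam3 the order was Clec4e (2128 ± 103 RPKM), Clec4d (630 ± 33.1), Clec12a (264 ± 9.07), Clec4a3 (108 ± 1.99), Clec4a2 (61.1 ± 1.67), Clec7a (34.3 ± 1.99), Clec5a (27.7 ± 1.17), Mrc1 (24.5 ± 1.38) and Clec4n (12.9 ± 1.18), and among neighbours Clec5a and Mrc1 overlapped. WT_Pam3 had the same order, led by Clec4e (2166 ± 106 RPKM), Clec4d (687 ± 99.7) and Clec12a (276 ± 35.9), with Mrc1 (30.5 ± 5.08 RPKM) and Clec5a (26.5 ± 1.002 RPKM) exchanged and again overlapping.

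Mincle RNA was the main part of the group after Pam3 and a minor part in media. Clec4e made up 64.7% ± 0.975 of the summed RPKM of the 9 genes in KO_Pam3 and 63.6% ± 3.47 in WT_Pam3, against 0.886% ± 0.232 in KO_media and 0.673% ± 0.0505 in WT_media (SD, n = 6). The ratio of Clec4e to its partner Clec4d was 3.38 ± 0.138 in KO_Pam3 and 3.21 ± 0.483 in WT_Pam3, against 0.0486 ± 0.0143 in KO_media and 0.0351 ± 0.00303 in WT_media. WT_Pam3 replicate 5 had the lowest ratio of its group, at 2.24. The gene lengths behind the authors' RPKM are 0.618 times the merged exon length for Clec4e and 0.552 times for Clec12a, relative to the median gene. With lengths over merged exons, a comparison added for this ratio and share after seeing the data, the share of Clec4e was 54.7% ± 1.02 in KO_Pam3 and 53.5% ± 3.54 in WT_Pam3, against 0.608% ± 0.160 in KO_media and 0.457% ± 0.0340 in WT_media. The ratio to Clec4d was then 2.07 ± 0.0847 in KO_Pam3 and 1.97 ± 0.296 in WT_Pam3, against 0.0298 ± 0.00879 in KO_media and 0.0215 ± 0.00186 in WT_media. Over merged exons Clec4e still led both Pam3 groups, at 1189.5 ± 56.6 RPKM in KO_Pam3 and 1209 ± 56.0 RPKM in WT_Pam3, but Clec12a had rank 3 in KO_media and rank 4 in WT_media, with Clec7a at the top of both.

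**Figure D3:**
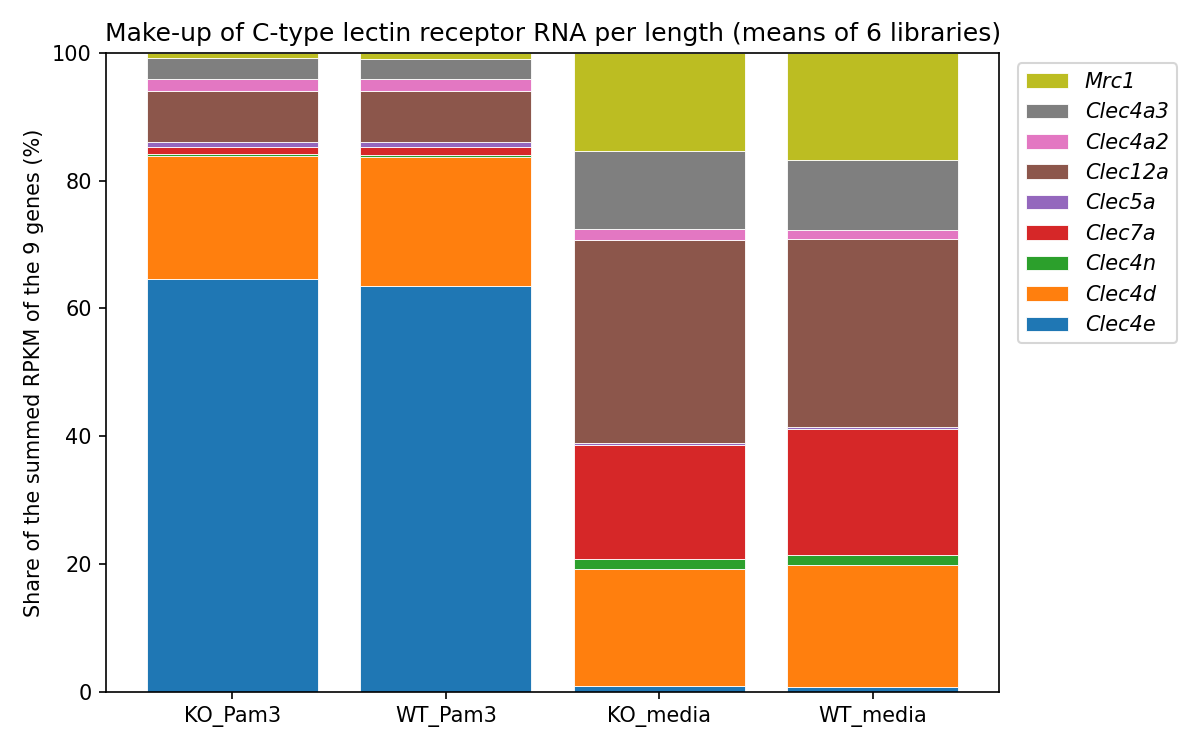
Share of each gene in the summed RPKM of the 9 genes, as bars stacked to 100% from the mean RPKM of 6 libraries per group. Clec4e takes 64.7% in KO_Pam3 and 63.5% in WT_Pam3, and under 1% in the media groups, where Clec12a, Clec7a, Clec4d, Mrc1 and Clec4a3 fill most of the bar.

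After Pam3, KO cells were set against WT cells, and 2 of the 9 receptors were lower in KO, Mrc1 and Clec7a, with none higher. Mrc1 averaged 145 ± 7.81 CPM in KO_Pam3 and 180.1 ± 29.7 CPM in WT_Pam3, a log2 difference of -0.31 (SE 0.0753, adjusted p = 0.0155). The only WT_Pam3 library in or under the KO_Pam3 range was replicate 5. Without it the other 5 WT_Pam3 libraries lay between 178 and 209 CPM, above all 6 KO_Pam3 libraries, and the difference was -0.40 (SE 0.0405, adjusted p = 7.87e-08, against 7.87e-08 to 0.171 over all alternatives). Clec7a averaged 86.5 ± 5.03 CPM in KO_Pam3 and 99.9 ± 8.56 CPM in WT_Pam3 (log2 -0.21, SE 0.0490, adjusted p = 0.0135), and 4 of 6 KO_Pam3 libraries were below all WT_Pam3 libraries.

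For scale, 2.75% of tested genes were lower and 1.31% higher in KO_Pam3 than in WT_Pam3 (without WT_Pam3 replicate 5, 5.67% lower and 2.42% higher, with the same 2 receptors lower and none higher). No receptor had an unadjusted p under 0.05 in the higher direction, and DESeq2 called 0 higher too. Clec4e after Pam3 averaged 5906 ± 281 CPM in KO_Pam3 and 6005 ± 278 CPM in WT_Pam3, with overlapping groups (log2 -0.02, SE 0.0921, adjusted p = 0.929). The remaining receptors had differences of -0.12 for Clec4d, -0.07 for Clec4n, 0.06 for Clec5a, -0.06 for Clec12a, -0.04 for Clec4a2 and 0.00 for Clec4a3, with adjusted p of 0.359 to 0.997. Without WT_Pam3 replicate 5 the Clec4d difference was -0.03 (adjusted p = 0.710), and those of Clec4n (0.03), Clec12a (0.02) and Clec4a2 (0.01) turned in sign. The calls of Mrc1 and Clec7a were both lost when only the 2 Pam3 groups were fitted (adjusted p = 0.171 for Mrc1 and 0.148 for Clec7a), and that of Clec7a also with library size as the only scaling (0.0521) or no filter (0.113). The adjusted p of Clec7a ran from 0.000461 to 0.148 over all alternatives.

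In media, KO cells had more Clec4e and Clec4a3 RNA than WT cells. Clec4e averaged 17.2 ± 4.41 CPM in KO_media and 13.1 ± 1.28 CPM in WT_media, and 4 of 6 KO_media libraries were above all WT_media libraries (log2 0.39, SE 0.102, 1.31-fold, adjusted p = 0.0323). KO_media replicate 1, at 25.8 CPM, was the highest by far, the other 5 lying between 13.7 and 17.2 CPM. Without it the difference was 0.24 (SE 0.0641, adjusted p = 0.0452, against 0.00837 to 0.0914 over all alternatives). The call was lost without KO_media replicate 5 (adjusted p = 0.0566) or WT_media replicate 3 (0.0914), 5 (0.0769) or 6 (0.0679). Clec4a3 averaged 127 ± 4.60 CPM in KO_media and 111 ± 10.3 CPM in WT_media, with 5 of 6 KO_media libraries above all WT_media libraries (log2 0.19, SE 0.0490, adjusted p = 0.0320). This call was lost without any of KO_media replicates 1, 2, 4, 5 and 6 or WT_media replicates 3, 4, 5 and 6, with adjusted p of 0.0504 to 0.0825, and with no filter (0.0738), against 0.00548 to 0.0825 over all alternatives.

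The share of all tested genes was 1.92% higher and 1.12% lower in KO_media than in WT_media. No receptor was called lower by edgeR; 1 had an unadjusted p under 0.05 and 1 was called by DESeq2, Clec7a both times. All 6 KO_media libraries had less Clec7a than any WT_media library, with 316 ± 10.4 CPM in KO_media and 351 ± 14.2 CPM in WT_media (log2 -0.15, SE 0.0480, adjusted p = 0.0899). Mrc1 averaged 636 ± 12.6 CPM in KO_media and 699 ± 35.3 CPM in WT_media, with 5 of 6 KO_media libraries below all WT_media libraries (log2 -0.14, SE 0.0744, adjusted p = 0.472), and Clec12a averaged 615 ± 19.8 CPM in KO_media and 569 ± 21.4 CPM in WT_media, with 4 of 6 above (log2 0.11, SE 0.0564, adjusted p = 0.408).

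These 3 genes passed once WT_Pam3 replicate 5, which enters the estimate of spread that all groups share, was left out: Clec7a lower (adjusted p = 0.0127), Mrc1 lower (0.0186) and Clec12a higher (0.0141), with fold changes of the same size. Of all tested genes, 4.52% were then higher and 4.23% lower in KO_media. When the 2 media groups were fitted alone, the 3 genes passed too (0.00510, 0.0125 and 0.0212). Over all alternatives the adjusted p ran from 0.00510 to 0.230 for Clec7a, 0.0125 to 0.636 for Mrc1 and 0.0141 to 0.652 for Clec12a. Clec4d, Clec4n, Clec5a and Clec4a2 had differences of -0.06 to 0.13 and adjusted p of 0.369 to 0.877.

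**Figure D4:**
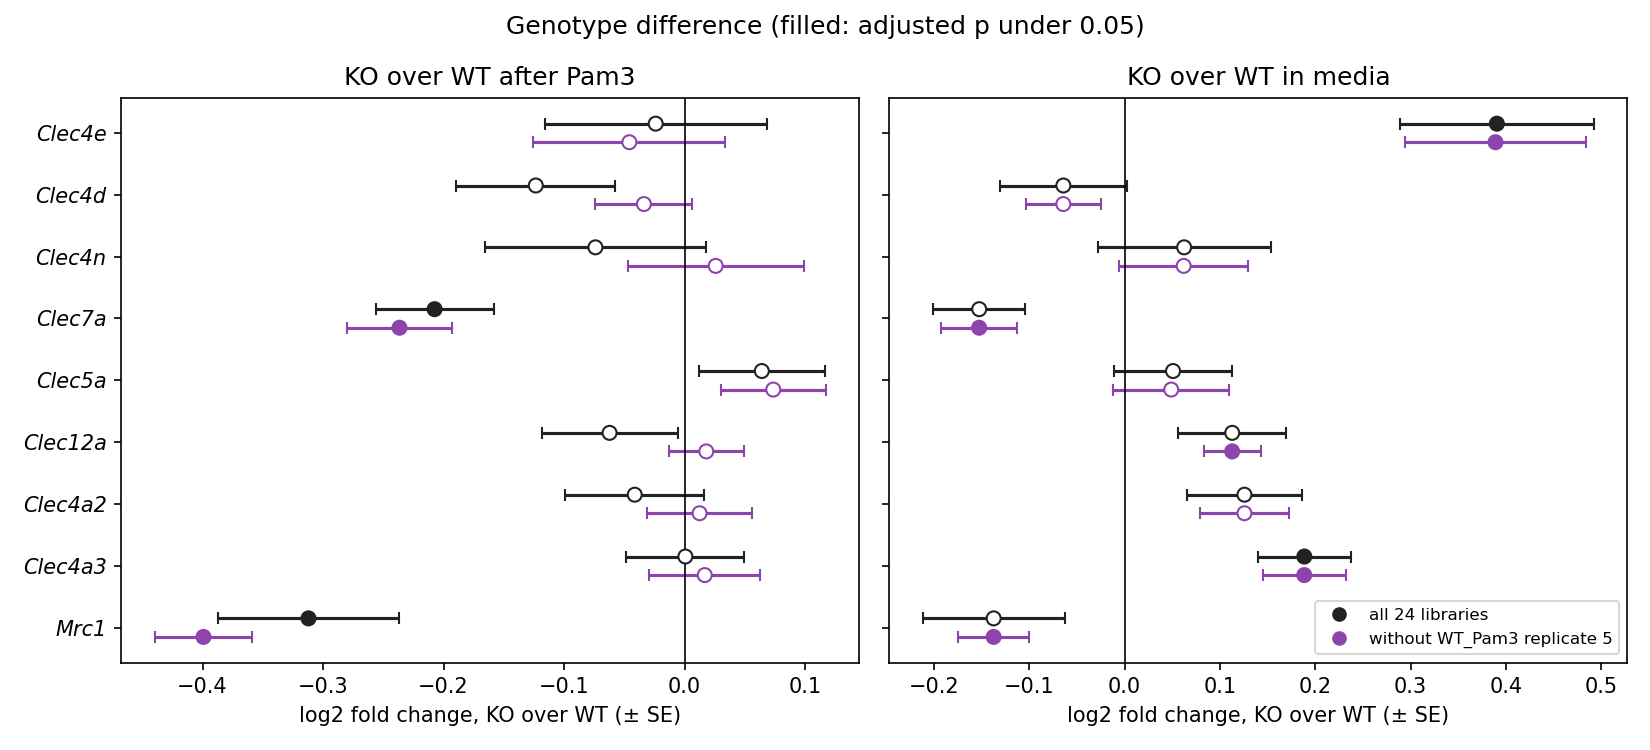
log2 fold change of KO over WT, with SE, after Pam3 (left) and in media (right), from all 24 libraries (black) and without WT_Pam3 replicate 5 (purple); filled points have an adjusted p under 0.05. After Pam3, Clec7a and Mrc1 are filled both ways, and in media Clec4e and Clec4a3 are filled both ways while Clec7a, Clec12a and Mrc1 are filled only without that library.

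Whether the response to Pam3 itself differed between genotypes was tested as an interaction, the log2 response in KO cells minus that in WT cells. None of the 9 receptors passed with edgeR or DESeq2, where edgeR called 0.173% of all tested genes higher and 0.589% lower. At an unadjusted p under 0.05, 3 receptors (Clec4e, Clec12a and Clec4a3) were in the lower direction and 0 in the higher, against 8.09% of all tested genes lower and 4.16% higher. The differences were -0.41 for Clec4e (SE 0.137, adjusted p = 0.158), -0.19 for Clec4a3, -0.18 for Clec12a, -0.17 for Mrc1, -0.17 for Clec4a2, -0.14 for Clec4n, -0.06 for Clec4d, -0.06 for Clec7a and 0.01 for Clec5a. Without WT_Pam3 replicate 5, Clec4e (-0.43, SE 0.124, adjusted p = 0.0446) and Mrc1 (-0.26, SE 0.0553, adjusted p = 0.00648) passed, both with a negative difference. For Clec4e this was a smaller rise in KO cells (log2 8.43, against 8.86 in WT cells). For Mrc1 it was a steeper fall in KO cells (-2.13, against -1.87 in WT cells). Of all tested genes, 0.7% were then called higher and 3.03% lower. The other 7 did not pass without that library, with differences of -0.09 for Clec12a, -0.17 for Clec4a3, -0.11 for Clec4a2, -0.04 for Clec4n, 0.03 for Clec4d, -0.08 for Clec7a and 0.02 for Clec5a. Over all alternatives the adjusted p ran from 0.0446 to 0.321 for Clec4e and from 0.00648 to 0.745 for Mrc1. Without KO_media replicate 1, the Clec4e difference was -0.25 (adjusted p = 0.230).

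Of 27 adaptors, kinases, phosphatases and targets that carry or restrain these receptors' signals, 19 were higher and 8 lower with Pam3 in KO cells, beside 40.2% higher and 44.8% lower among all tested genes. In WT cells 18 were higher and 7 lower, beside 40.6% and 44.2%. The median log2 change of the list was 1.07 in KO cells and 1.13 in WT cells, where all tested genes had -0.07 and -0.05. Src, a kinase that phosphorylates tyrosine motifs, had 239 ± 11.1 CPM in KO_Pam3 and 4.66 ± 0.268 CPM in KO_media (log2 5.68, SE 0.0686), and the change in WT cells was 5.74. Its relative Lyn rose by 2.33 in KO cells and 2.42 in WT cells, and Prkcd, the kinase between SYK and CARD9, by 2.07 in KO cells and 1.96 in WT cells. Nfatc2, a transcription factor activated through calcium, fell by 4.44 in KO cells on the log2 scale. The route to NF-kB did not move as 1. In KO and WT cells, Fcer1g (FcR gamma) rose by 1.07 and 1.21, and Syk by 2.46 and 2.43. Bcl10 rose by 1.45 and 1.55, and Malt1 by 5.06 and 4.94. Card9 (-0.97 and -0.98) and Tyrobp (DAP12, -0.49 and -0.28) fell.

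Between genotypes in media, 4 of the 27 were higher in KO and 1 lower, beside 1.92% higher and 1.12% lower among all tested genes. Among them were Fgr (10.2 ± 1.24 CPM in KO_media and 7.92 ± 0.555 CPM in WT_media, log2 0.36, adjusted p = 0.00627) and Plcg2 (0.16, adjusted p = 0.0111), both higher, and Egr2, an early response gene downstream, which was lower (-0.30, adjusted p = 0.0161). After Pam3, Fgr (0.36, adjusted p = 0.00235), Inpp5d (0.19, adjusted p = 0.0128) and Prkcd (0.12, adjusted p = 0.0159) were higher in KO and none lower, beside 1.31% higher and 2.75% lower among all tested genes, with 2 at an unadjusted p under 0.05 and 0 by DESeq2 in that direction. In the interaction none of the 27 passed with edgeR; 3 had an unadjusted p under 0.05 in the higher and 4 in the lower direction, and DESeq2 called 1 in each.

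Other C-type lectin receptors ranged from silent to abundant in these cells. Of 32, 20 passed the filter, and the 12 that did not, among them Cd207 and Cd209a to Cd209e, had at most 11 counts in any library. Cd93 averaged 948 ± 14.1 CPM in KO_media and 950 ± 32.5 CPM in WT_media, and 269 ± 10.8 CPM in KO_Pam3 and 288 ± 41.4 CPM in WT_Pam3. Of the 20, 7 rose and 9 fell with Pam3 in KO cells and 8 rose and 10 fell in WT cells, beside 40.2% higher and 44.8% lower among all tested genes in KO cells and 40.6% and 44.2% in WT cells. The list's median log2 change was -0.23 in KO cells and -0.22 in WT cells. Clec4a1, next of kin to Clec4a2 and Clec4a3, rose with 629 ± 15.9 CPM in KO_Pam3 and 151 ± 3.94 CPM in KO_media (log2 2.06, SE 0.0450) and a change of 2.29 in WT cells. That was near the rise of Clec4a2 (2.39 in KO cells and 2.56 in WT cells) and above that of Clec4a3 (0.33 and 0.51). Clec10a, the galactose-type lectin of macrophages, fell further than Mrc1, with 2.12 ± 0.379 CPM in KO_Pam3 and 65.4 ± 3.41 CPM in KO_media (log2 -4.94, SE 0.0916) and -4.66 in WT cells. Clec2i fell, with log2 changes of -2.73 in KO cells and -2.88 in WT cells. Cd69, an activation antigen, rose by 7.44 in KO cells and 8.16 in WT cells, and was the only member of the list past the interaction test (-0.72, SE 0.175, adjusted p = 0.0493). In media, Mrc2 (0.75, adjusted p = 0.0143) and Cd69 (0.64, adjusted p = 0.0205) were higher in KO, beside 1.92% higher among all tested genes. After Pam3 none of the 20 differed past the edgeR test; 2 in the higher and 3 in the lower direction had an unadjusted p under 0.05, and DESeq2 called 1 higher and 2 lower.

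Mrc1 belongs with genes of alternative activation, of which 18 of 20 were tested. With Pam3, 7 rose and 11 fell in KO cells and 7 rose and 10 fell in WT cells, beside 40.2% higher and 44.8% lower among all tested genes in KO cells and 40.6% and 44.2% in WT cells. Pparg, a regulator of lipid uptake that favours this state, fell, with log2 changes of -3.13 in KO cells and -3.12 in WT cells, while the transglutaminase Tgm2 rose by 2.89 in KO cells and 3.02 in WT cells and the chemokine Ccl22 by 7.71 in KO cells and 8.37 in WT cells. Myc, a transcription factor of growth, rose by 2.70 in KO cells and 2.49 in WT cells. In media 2 genes were higher and 4 lower in KO, beside 1.92% higher and 1.12% lower among all tested genes. The scavenger receptor Stab1 averaged 1796 ± 55.1 CPM in KO_media and 2188 ± 139 CPM in WT_media (log2 -0.28, adjusted p = 0.00212), Egr2 was lower (-0.30, adjusted p = 0.0161), and Chil3, a chitinase-like lectin (0.51, adjusted p = 3.05e-06), and the interleukin 4 receptor chain Il4ra (0.16, adjusted p = 0.0340) were higher. After Pam3, F13a1 (-0.35, adjusted p = 0.00923) and Stab1 (-0.20, adjusted p = 0.0288) were lower in KO, as Mrc1 was, and Chil3 was higher (0.41, adjusted p = 6.92e-05). Of all tested genes, 2.75% were lower and 1.31% higher there. None of the 18 passed the interaction test with edgeR. In each direction 2 had an unadjusted p under 0.05, and DESeq2 called 1, with a negative difference.

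Some markers of other cells and states differed between genotypes in media, where 1.92% of all tested genes were higher and 1.12% lower in KO. The 10 granulocyte markers summed to 91.0 to 105 CPM in KO_media and 69.4 to 81.3 CPM in WT_media, with 4 of 9 tested members higher in KO and Ly6g at 3 counts at most in any library. The 7 stromal markers summed to 50.2 to 90.7 CPM in KO_media and 36.5 to 46.9 CPM in WT_media, with 6 of 7 higher. Dendritic cell markers summed to 12.3 to 14.8 CPM in KO_media and 8.79 to 12.01 CPM in WT_media, with 2 of 6 tested members higher, and of 6 macrophage markers 1 was higher. All 6 interferon-stimulated genes were higher, with sums of 606 to 1370 CPM in KO_media and 380 to 509 CPM in WT_media, and KO_media replicate 1 had the highest sum, 1370 CPM, together with the highest Clec4e. Their part in the higher Clec4e and Clec4a3 of KO_media was not tested.

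After Pam3, 1.31% of all tested genes were higher and 2.75% lower in KO. Granulocyte markers summed to 53.7 to 61.8 CPM in KO_Pam3 and 44.1 to 66.0 CPM in WT_Pam3, with 2 of 9 higher in KO and Ly6g at 0 in all 6 WT_Pam3 libraries. Stromal markers summed to 132 to 176 CPM in KO_Pam3 and 96.4 to 134 CPM in WT_Pam3, with 2 of 7 higher in KO. Most of the stromal sum was Pdgfrb, with 98.1 ± 8.88 CPM in KO_Pam3 and 83.8 ± 11.4 CPM in WT_Pam3, against 2.36 CPM in KO_media and 1.56 CPM in WT_media. Pdgfrb and Pecam1 rose with Pam3 in both genotypes, and no other stromal marker did past the test. Of the macrophage markers, Mertk (21.9 ± 1.82 CPM in KO_Pam3 and 34.0 ± 4.10 CPM in WT_Pam3, log2 -0.63, adjusted p = 7.11e-07) and Cd68 (-0.28, adjusted p = 0.00114) were lower in KO together with Mrc1 and Clec7a, and Itgam was higher (0.17, adjusted p = 0.0114). Mertk alone of these markers passed the edgeR interaction test (-0.48, SE 0.0858, adjusted p = 0.0108). Its fall with Pam3 was steeper in KO cells (log2 -2.86, against -2.38 in WT cells). DESeq2 called 3 of the 6 with a negative interaction and 0 with a positive one. Dendritic cell markers summed to 194 to 227 CPM in KO_Pam3 and 173 to 219.7 CPM in WT_Pam3, with 1 of 6 tested members higher in KO, Zbtb46 (0.660 ± 0.136 CPM in KO_Pam3 and 0.341 ± 0.0790 CPM in WT_Pam3, log2 0.94, SE 0.221, adjusted p = 0.0135). Nearly all of this sum was Fscn1, with 194 ± 11.7 CPM in KO_Pam3 and 181 ± 14.9 CPM in WT_Pam3, against 3.89 CPM in KO_media and 2.42 CPM in WT_media. Ccr7 also rose with Pam3, Flt3 and Siglech fell, and Zbtb46 and Dpp4 did not pass that test in either genotype. The interferon-stimulated genes summed to 2954 to 3286 CPM in KO_Pam3 and 2982 to 3871 CPM in WT_Pam3. After Pam3, 0 of 6 passed with edgeR, at an unadjusted p under 0.05 or with DESeq2. Still, Mx1 was lower in all 6 KO_Pam3 libraries (649 ± 41.4 CPM) than in any WT_Pam3 library (760 ± 42.1 CPM). Its log2 difference was -0.23 (SE 0.162, adjusted p = 0.515). For Ifit3 and Rtp4, 4 of 6 KO_Pam3 libraries were below all WT_Pam3 libraries, and for Irf7, Oasl2 and Isg15 0 were. In the interaction, 4 of the 6 interferon-stimulated genes had a negative difference past the edgeR test, beside 0.589% of all tested genes. With Pam3 these 4 rose less in KO cells than in WT cells. They were Ifit3 (-1.18), Irf7 (-0.83), Oasl2 (-0.78) and Rtp4 (-0.75), with adjusted p of 0.0221 to 0.0350. Without WT_Pam3 replicate 5 the Clec4e interaction was negative past the test too. The part of these genes in that difference was not tested. Lymphocyte markers summed to 2.68 CPM at most and mast cell and basophil markers to 12.3 CPM at most in any library, and no member of either list differed between genotypes past the edgeR test in media or after Pam3, with 0 and 1 at an unadjusted p under 0.05 in each comparison and 0 by DESeq2. The part of these markers in the receptor differences was not tested.

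Some genes followed a receptor closely across all 24 libraries. The measure was the root-mean-square difference of log2 CPM, each gene centred on its own mean, over libraries that share 2 treatments and 2 genotypes; it is a description with no test. Nearest to Clec4e were the chemokine Ccl5 (0.22 log2 units) and the adenosine receptor Adora2a (0.26). Psmd10 (0.10) and the thioredoxin Txn1 (0.10) were nearest to Clec4d, Atp5f1 (0.10) and Psma1 (0.11) to Clec4n, and Vasp (0.12) and the integrin chain Itga5 (0.12) to Clec5a. Among the falling receptors, Nedd4l (0.08) and Cd200r1 (0.08), an inhibitory receptor, were nearest to Clec7a, and the sorting receptor Sort1 (0.08) and Mgat5 (0.10) to Mrc1. Copz1 and Sec11a (0.04 each) were nearest to Clec12a, Rac2 (0.09) and Stip1 (0.10) to Clec4a2, and Rbm22 and Ccnk (0.08 each) to Clec4a3.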

How the data were processed

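PolyA RNA was sequenced with an unstranded TruSeq kit as single-end 50 bp reads, per the labels' protocols. The submitters' processing notes name GSNAP and GRCm38, without versions. Per the file headers, the count column deposited by the authors holds reads aligned uniquely to each gene model, and the RPKM column is adjusted by a size factor. Since the kit does not mark strand, a gene and an antisense partner share their reads; Clec4a2 overlaps a model with 1 count in all.

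Counts were tested with edgeR 4.0.16 in R 4.3.3 (quasi-likelihood F-test, TMM scaling, filterByExpr, the 4 groups and 24 libraries fitted together, Benjamini-Hochberg adjustment over 14435 genes, threshold 0.05). The coefficient of variation between libraries was 8.21%. Standard errors were derived from each fold change and its F statistic. The fit was tested on simulated counts. GENCODE M21 gave symbols for 52489 of 52636 gene models; the other 147 held 0.00387% of reads. No libraries were identical. The level that 0 counts would allow (3 counts of a library) is 0.0738 to 0.0958 CPM, for counting error only. RPKM served to rank genes by level. The members, gene lists and tests were chosen with earlier results of these data known. Genes of the route to NF-kB, Cd93 and some markers were named for their values. The other named list genes followed a rule: up to 4 per list and comparison with the smallest adjusted p among those past the test, and for each member the 2 genes nearest in log2 CPM. A gene that this rule names in the signalling list is not reported here. Alternatives were library size only, RLE factors, DESeq2 1.42.0, no filter, a mean of at least 1 CPM, only the groups compared, leaving out each library, and RPKM over merged exons. Protein sequences were not analysed here.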

Additional observations from a re-analysis of the deposited data

Results flagged for a closer look

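Values of the 9 receptors in each group, 36 sets of 6 libraries, were screened for a library whose gap to the rest is large relative to the group's range, which chance does in about 1 of 20 sets. It was found 5 times, and 4 of these were WT_Pam3 replicate 5. That library had the highest Clec4d (1301 CPM), Clec4n (24.9 CPM) and Clec12a (965 CPM) and the lowest Mrc1 (124 CPM) of its group. KO_media replicate 1 had the highest Clec4e of KO_media, at 25.8 CPM. Changes computed without these libraries stand beside the values of these genes above.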

How the results depend on the processing

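No paired analysis was possible because replicate numbers were given in accession order and match no sample with another. The number of receptors called in each direction was the same under RLE factors and a mean of at least 1 CPM. Receptors higher in KO_media than WT_media were 2, 1 with no filter and 3 when only the media groups were fitted. They were 0 to 3 when a library was left out (0 without KO_media replicate 5 or WT_media replicate 3, 5 or 6, 1 without KO_media replicate 1, 2, 4 or 6 or WT_media replicate 4, and 3 without WT_Pam3 replicate 5). Those lower were 0, 2 when only the media groups were fitted, 1 with DESeq2 and 0 to 2 with a library left out. Receptors lower in KO_Pam3 than WT_Pam3 were 2, 1 with library size only, 1 with no filter and 0 with only the Pam3 groups. With library size only, Pam3 against media gave 4 higher and 5 lower in KO cells and 4 higher in WT cells. The interaction gave 0 to 2 lower with a library left out.

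Changes of sign occurred in small differences. For KO_Pam3 over WT_Pam3, Clec4e was 0.0253 with library size only and 0.00625 with no filter, and Clec4a2 was 0.00669 with library size only. With a library left out the same comparison ran from -0.120 to 0.0259 for Clec4n, -0.0822 to 0.0180 for Clec12a and -0.0662 to 0.0125 for Clec4a2, the upper ends without WT_Pam3 replicate 5, and from -0.0196 to 0.0202 for Clec4a3, which was -0.00108 with DESeq2. The interaction ran from -0.0837 to 0.0305 for Clec4d, again with its upper end without WT_Pam3 replicate 5, and from -0.00784 to 0.0743 for Clec5a. With library size only, Pam3 against media turned to -0.204, -0.240 and -0.157 for Clec4n, Clec12a and Clec4a3 in KO cells and to -0.106, -0.103 and -0.00839 in WT cells, where the median of all genes was -0.56 in KO cells and -0.58 in WT cells. Otherwise the cause was not tested.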
